A study of Caenorhabditis elegans with 2 samples.

Results

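The genes described here are set-2, set-16, wdr-5.1, ash-2, rbbp-5 and cfp-1, which encode histone H3K4 methyltransferases of Caenorhabditis elegans and their partner subunits, and tasp-1, a protease gene. They were chosen by name, as the complexes built around SET-2 and SET-16 together with tasp-1, with the strong peaks at set-16 and tasp-1 already known. All 7 matched the annotation, out of 19973 protein-coding genes. Chromatin immunoprecipitation with sequencing (ChIP-seq) had mapped the homeodomain protein CEH-82, encoded by F45C12.2, in whole L1 larvae, the first larval stage. The strain was OP212, with the genotype unc-119(ed3) III; ddEx58, and it expressed CEH-82 with GFP and FLAG tags at the C-terminus. The animals were of both sexes, pooled, and of unknown age. The labels call the transgene an insertion, while the name ddEx58 is that of an extrachromosomal array, and which copy carried the tag is not given. The antibody is named only by its target, so whether it met the tag or the protein itself is unknown. The 2 biological replicates formed 1 group, and ChIP of an untagged strain was not analysed here, so background of the ChIP itself was not separated from binding.

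Methylation of lysine 4 of histone H3 marks active promoters and enhancers. SET-2 is the worm relative of yeast Set1 and of mammalian SETD1 proteins, and it makes most of the trimethylated form at promoters. SET-16 is the relative of the mammalian MLL3 and MLL4 proteins. Such enzymes work with a shared core that holds WDR-5.1, RBBP-5, ASH-2 and DPY-30, and CFP-1, a zinc finger protein related to mammalian CXXC1, belongs to the SET-2 complex. In worms, loss of set-2, wdr-5.1 or ash-2 is known to affect the germline and lifespan. The tasp-1 gene encodes the relative of mammalian Taspase 1, a threonine protease that cleaves the mammalian MLL1 protein.

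Peaks were taken from 4 lists on ce11. The optimal list held 2346 peaks, the relaxed list of the pooled data 20459, and the relaxed list of each replicate 30000. Each peak carries a signal value set by the authors, in units that are not stated, and signals are compared only within a list. The optimal list was the same as the 2346 strongest peaks of the pooled relaxed list, so a peak was in it when its pooled signal was at least 30.9. The pooled signal has no replicate error, so both replicates' own signals and ranks (1 is the strongest) are given beside it. Positions are in bp from the annotated start of the gene, negative upstream. With 1 group and no comparison between groups, no test was made, and read counts are unknown.

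The 101 bases around the summits that the results below turn on are given first, on the strand of the member gene, from the WBcel235 assembly. Capitals mark the longest word that occurs at 2 places without overlap, on either strand, where it had 7 or more letters.
tasp-1, summit at -60 (chrIII:10759197-10759297, plus strand): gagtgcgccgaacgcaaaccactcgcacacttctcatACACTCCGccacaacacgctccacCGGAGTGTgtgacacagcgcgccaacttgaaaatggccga
set-16, summit at -190 (chrIII:13643676-13643776, plus strand): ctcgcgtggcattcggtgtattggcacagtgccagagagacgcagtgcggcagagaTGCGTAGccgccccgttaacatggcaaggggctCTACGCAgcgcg
ash-2, summit at 485 (chrII:11980273-11980373, plus strand): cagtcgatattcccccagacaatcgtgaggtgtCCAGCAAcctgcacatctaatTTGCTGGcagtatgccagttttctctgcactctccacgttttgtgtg
rbbp-5, summit at -176 (chrII:6097604-6097704, plus strand): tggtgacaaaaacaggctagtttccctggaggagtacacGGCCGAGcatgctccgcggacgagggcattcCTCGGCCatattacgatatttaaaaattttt
set-2, summit at -260 (chrIII:4930414-4930514, minus strand): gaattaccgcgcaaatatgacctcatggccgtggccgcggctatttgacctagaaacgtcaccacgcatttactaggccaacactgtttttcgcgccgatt
wdr-5.1, relaxed summit at -89 (chrIII:3705146-3705246, plus strand): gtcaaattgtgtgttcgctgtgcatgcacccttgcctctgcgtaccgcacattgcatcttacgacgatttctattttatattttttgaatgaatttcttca

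Of the 7 genes, 5 had an optimal summit within 500 bp of the start, namely tasp-1, set-16, ash-2, rbbp-5 and set-2. Among all protein-coding genes the share was 8.18%. The count was 2 (set-2 and tasp-1) when each peak went to its closest start alone, and 3 (tasp-1, set-16 and ash-2) among peaks above the median signal, beside 6.19% and 4.7% of all genes. By chromosome, 12.4% of genes on III, where 4 of the 7 lie, were bound, 7.86% on II (2 of the 7) and 8.14% on IV (cfp-1). That these genes were proposed with peaks known means that the count describes them and supports nothing further. Their pooled signals covered a 10.8-fold range, from 41.04 at set-2 to 443 at tasp-1. wdr-5.1 had a relaxed summit within 500 bp that was too weak for the optimal list, and cfp-1 had no pooled summit at that distance. Relaxed pooled summits thus lay at 6 of the 7 starts, beside 27.4% of all protein-coding genes.

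**Figure D1:**
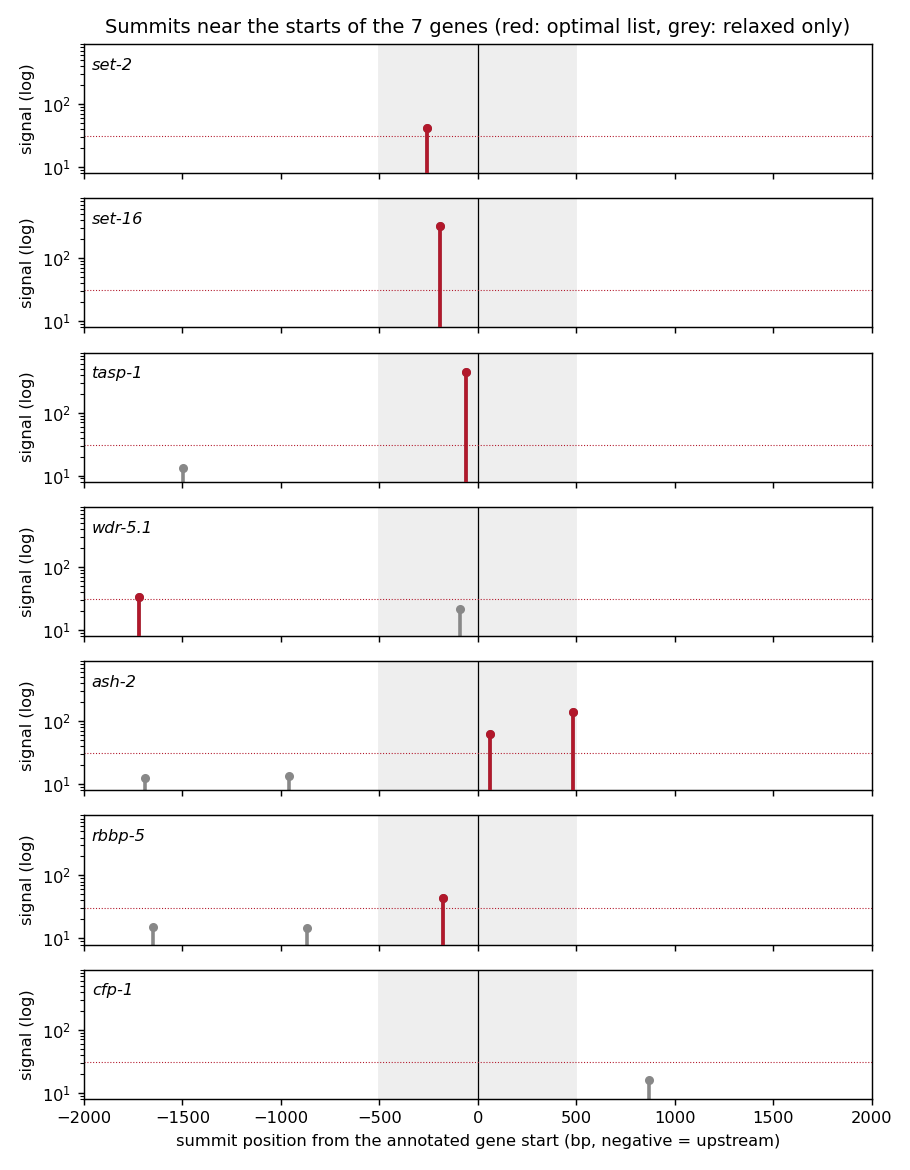
Summits of the pooled data within 2000 bp of the start of each of the 7 genes (x axis, bp, drawn upstream and within the gene only), with their signal on a log y axis. Red stems are optimal peaks, grey stems are relaxed peaks outside the optimal list, the shaded band is 500 bp either side of the start and the dotted line is the lowest optimal signal (30.9); tasp-1 and set-16 have the tallest stems, ash-2 has 2 red stems, and wdr-5.1 and cfp-1 have no red stem in the band.

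The methyltransferase gene set-16 (WBGene00011729, III, 13643916 to 13656637, plus strand) had a peak with a pooled signal of 328.1, rank 26 of 2346. Its signal was 158.8 (rank 19) in replicate 1 and 163 (rank 35) in replicate 2. The summit was at -190 in the pooled data and in replicate 1, and at -183 in replicate 2. Both replicates thus placed a strong peak at the same site, outside any annotated gene. The peak (13643656 to 13643809, 154 bp wide) lay in the 345 bp between set-16 and drr-2, which encodes a translation initiation factor of the eIF4H type and is read in the opposite direction. Its summit was closer to drr-2, at -156 from that start, so the data do not assign the peak to set-16 rather than to drr-2. The neighbours in the order of signal among gene-start peaks were the shared peak of hsr-9 and rps-19 (328.4) and that of Y55F3AR.2 and cct-8 (325).

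Along the 12722 bp of set-16 no other optimal summit was found. The pooled relaxed list held 1 further summit, at 6864 with a signal of 11.1 (rank 20082). No optimal summit thus lay within this long gene, and the strong one lay upstream of it, shared with drr-2.

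The other methyltransferase gene, set-2 (WBGene00004782, III, 4922427 to 4930204, minus strand), had a much weaker peak. Its pooled signal was 41.04, rank 1715, which put 73.1% of the optimal list at or above it. The signal was 22.4 (rank 1404) in replicate 1 and 20.9 (rank 1894) in replicate 2. The summit lay at -260 in the pooled data and in replicate 2, and at -288 in replicate 1, between set-2 and the 3' end of C26E6.12, which is read in the same direction and ends 397 bp away. No other protein-coding start lay within 500 bp of this summit. Next to it in signal among gene-start peaks stood the peak of rgr-1 and gpr-2 (41.09) and that of ppm-1.H and rpl-34 (41.03).

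The annotation gives set-2 3 coding transcripts, whose starts are at 0, 73 and 4104. For the short transcript that starts at 4104, the nearest optimal summit was the one upstream of the whole gene. The nearest relaxed pooled summit was 1597 bp downstream of that internal start, with a signal of 11.2. An optimal peak was thus seen at the start of the long set-2 transcripts and not at the internal start.

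The strongest peak of the set was that of tasp-1 (WBGene00010480, III, 10759307 to 10763021, plus strand). Its pooled signal of 443 ranked 7 among all optimal peaks and 5 among the 1246 optimal peaks with a protein-coding start within 500 bp. In replicate 1 the signal was 192.9 (rank 7), and in replicate 2 it was 248.7 (rank 8). The rank was thus nearly the same in both replicates. The summit lay at -60 in the pooled data, -42 in replicate 1 and -49 in replicate 2. Among gene-start peaks its neighbours in signal were the peak of rpl-15 and K11H12.8 (483.6) and that of rpl-35 (439.7), genes of the large ribosomal subunit apart from K11H12.8.

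No other protein-coding start lay within 500 bp of the tasp-1 summit. The upstream neighbour K01G5.10 is read in the opposite direction, and 784 bp separate the genes. The downstream neighbour is dpy-28, which encodes a subunit of the condensin of the dosage compensation complex. It begins 109 bp after tasp-1 on the same strand and had no optimal summit within 500 bp of its own start. The 3 annotated tasp-1 transcripts start at 0, 78 and 362, and the summit was upstream of all of them, at -60, -138 and -422.

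ash-2 (WBGene00012458, II, 11979838 to 11989050, plus strand), which encodes a core subunit, had 2 optimal summits within 500 bp of its annotated start. This held for 13 of all 19973 protein-coding genes, 0.0651%. The nearer summit, at 64, had a pooled signal of 63.4 (rank 986), with 16.7 (rank 2018) in replicate 1 and 44.7 (rank 661) in replicate 2. The farther summit, at 485, was the stronger one, with a pooled signal of 139.4 (rank 230), 59.9 (rank 270) in replicate 1 and 77.0 (rank 230) in replicate 2. The farther summit was at the same base in both replicates, while the nearer one was at 85 in replicate 1 and at 56 in replicate 2.

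The annotated start of ash-2 is that of a non-coding transcript, Y17G7B.2c. The 4 coding transcripts start at 588 to 627. Measured from them, the stronger summit was upstream, at -103, -140, -141 and -142. It falls in the first exon of the non-coding transcript and outside the coding ones. The nearest summit to the gene start is therefore not the peak closest to the coding transcripts. A gene start that is not that of a coding transcript was rare, with 68 of all protein-coding genes (0.34%), and ash-2 was the 1 such gene among the 7. The gene Y17G7B.20 is read in the opposite direction and its start overlaps that of ash-2 by 7 bp. The weaker summit was at -58 from the start of Y17G7B.20 and the stronger one at -479.

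**Figure D2:**
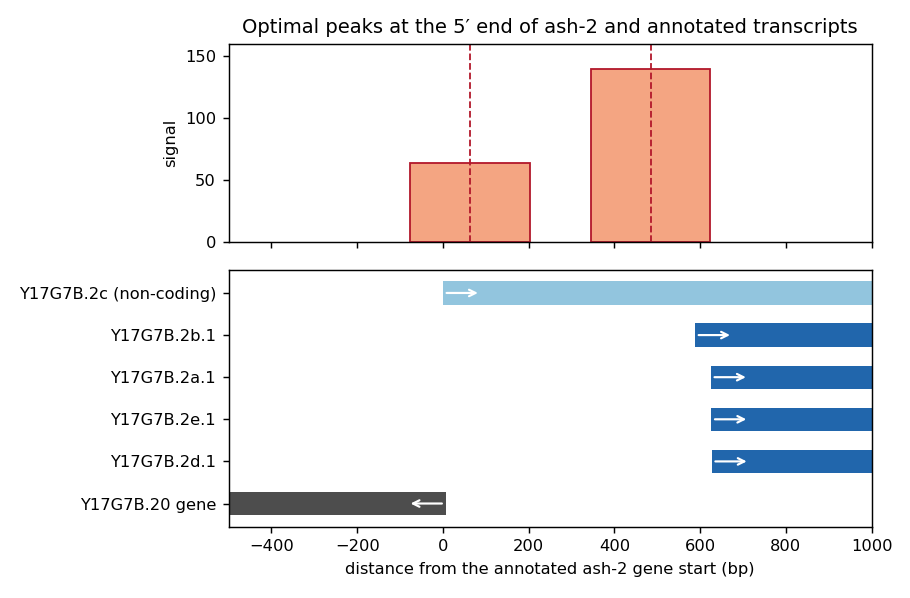
Map of the 5' end of ash-2, with distance from the annotated gene start in bp on the x axis. Bars in the upper panel are the 2 optimal peaks with their pooled signal (y axis) and dashed lines their summits at 64 and 485; bars in the lower panel are the spans of the annotated transcripts, with introns not drawn and cut at the edges of the map, and arrows give the direction of transcription. The summit of the stronger peak lies before all 4 coding transcripts (dark blue), while the end of that peak, at 624, reaches past the first of their starts, at 588.

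Ranked among gene-start peaks, the stronger ash-2 peak stood next to that of fib-1 and mut-15 (139.8) and that of C28G1.2 and sec-15 (139.2). The weaker one stood between syf-3 (63.5) and C37A2.7 (63.4). At ash-2 the 2 replicates differed in the rank of the weaker peak by 3.05-fold. Of the 2333 optimal peaks matched in both replicates, 9.56% differed by more, and the median difference was 1.485-fold.

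rbbp-5 (WBGene00017683, II, 6097830 to 6099645, plus strand), also a core subunit gene, had a pooled signal of 43.7 (rank 1593). The signal was 26.7 (rank 1111) in replicate 1 and 16.8 (rank 2508) in replicate 2. The peak was among the 2346 strongest of replicate 1 but not of replicate 2. The summit was at -176 in the pooled data and in replicate 2 and at -151 in replicate 1. It lay in the 232 bp between rbbp-5 and tpp-2, the gene of tripeptidyl peptidase II, which is read in the opposite direction. At -57 from the tpp-2 start, the summit was closer to that gene. Among gene-start peaks, those of rde-10 and rnp-6 (43.9) and of hst-6 (43.7) stood next to it in signal.

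wdr-5.1 (WBGene00006474, III, 3705285 to 3706784, plus strand), the WD-repeat core subunit gene, had its nearest optimal summit at -1720. That summit had a pooled signal of 33.03 (rank 2206) and lay at 1 from the start of the upstream gene C14B1.3. C14B1.3 is read in the same direction as wdr-5.1 and ends 226 bp before it. A relaxed summit was nevertheless present at -89 of wdr-5.1, with a pooled signal of 21.6 (rank 3706). Replicate 1 had it at -94 with a signal of 10.7 (rank 4357), and replicate 2 at -107 with a signal of 10.5 (rank 6224). Both replicates thus listed a weak peak at the wdr-5.1 start. Among the 7 genes, set-2 (41.04) had the weakest peak at a start that was in the optimal list. The wdr-5.1 peak (21.6) was below the lowest signal of that list, 30.9.

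cfp-1 (WBGene00009924, IV, 14077435 to 14083568, plus strand) had the least signal near its start. The nearest optimal summit, at -6333, was the peak of the upstream gene ccar-1, with a signal of 137.6 at -446 from that start. The nearest pooled relaxed summit was at 869, in an intron, with a signal of 15.8 (rank 7503). Replicate 1 listed a summit at -290 with a signal of 6.68 (rank 15406), and replicate 2 had none within 500 bp, its nearest being at 880 with a signal of 8.71 (rank 10499). A site near the cfp-1 start thus appeared in 1 replicate only, whose list holds 30000 peaks. From the transcript of cfp-1 that starts at 1286, the relaxed intronic summit was at -417.

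Across the 6 optimal peaks at these genes, all 6 were among the 2346 strongest of replicate 1 and 5 among those of replicate 2. Of all optimal peaks 74.3%, and of those at gene starts 79%, were in the top of both replicates, so the 5 of 6 stood close to the background. Counted by gene, the 2346 strongest peaks of replicate 1 marked the same 5 of the 7 genes (8.06% of all protein-coding genes) and those of replicate 2 marked 4 of them, without rbbp-5 (7.86% of all). The summits of the 2 replicates were 0 to 29 bp apart, with a median of 16 bp, and over all matched optimal peaks the median was 18 bp. The median rank difference was 1.595-fold at the 6 peaks and 1.485-fold over all.

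**Figure D3:**
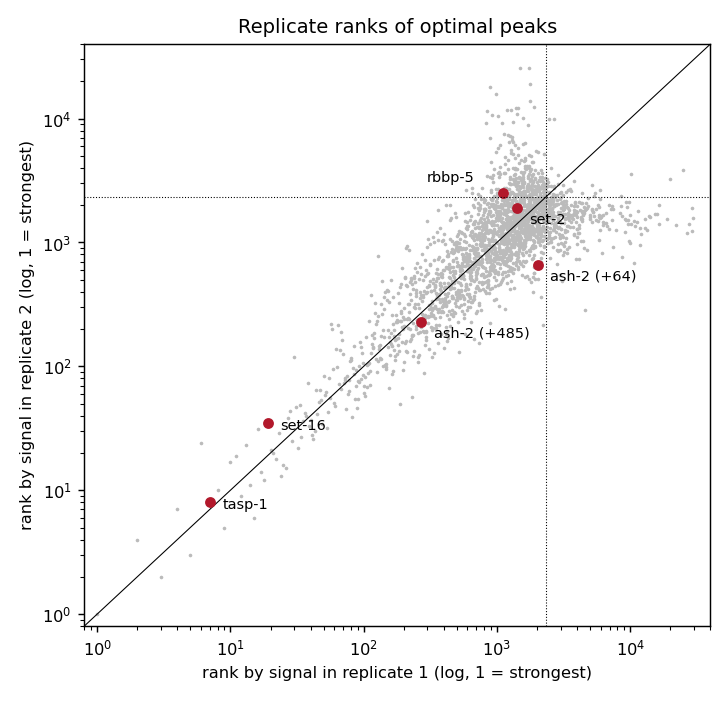
Rank by signal in replicate 1 (x axis, log) and in replicate 2 (y axis, log) of the 2333 optimal peaks matched in both (grey) and of the 6 peaks at the member genes (red, ash-2 named with the summit position). Dotted lines mark rank 2346 and the diagonal marks equal ranks; tasp-1, the ash-2 summit at 485 and set-2 lie closest to the diagonal, the ash-2 summit at 64 lies farthest from it, and rbbp-5 lies above the line of replicate 2.

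By the strongest peak at each bound gene, 3 of the 5 (tasp-1, set-16 and ash-2) had a pooled signal above 61.5, the median of all gene-start peaks, and 2 (rbbp-5 and set-2) were below it. The nearest summit was upstream of the annotated start at 4 of the 5 genes, with a median position of -176. Over all gene-start peaks, each measured from its nearest start, 90% of summits were upstream, with a median of -156. The member positions are from the member's own start, so they are not measured alike. From the nearest start, the summits at set-16, ash-2 and rbbp-5 lay at -156, -58 and -57. The nearest summit was shared with a divergent start at 3 of the 5 genes (set-16, ash-2 and rbbp-5). In each of these 3 cases the partner's start was the closer one to the summit. Of all optimal gene-start peaks, 31.2% had 2 or more starts within 500 bp, in any orientation. That share counts peaks and not genes, and a shared peak serves 2 or more genes, so the 2 values cannot be compared directly. No annotated non-coding gene lay within 500 bp of any of these summits.

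The windows around the summits differed in base composition. Those of the weaker ash-2 summit and of cfp-1 are not printed above. The set-16 window had 63.4% GC, exceeded by 1.71% of the windows of all optimal peaks, and the tasp-1 window had 58.4%, exceeded by 6.22%. The windows of set-2 (51.5%), the stronger ash-2 summit (49.5%), rbbp-5 (48.5%) and the weaker ash-2 summit (47.5%) were near the median of 48.5%. The 2 strongest peaks of the set thus had the most GC-rich windows. The weak wdr-5.1 window had 39.6% and the intronic cfp-1 window 28.7%.

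A search on both strands was made for 4 6-mers taken over from earlier work on these data, the homeodomain core TAATTA, the repeat GAGAGA, the GATA-type motif TGATAA and the E-box CACGTG. Only GAGAGA was found in the 6 optimal windows, at -206 to -201 of set-16. It occurs in 30.3% of all optimal windows. TAATTA occurs in 1.02% of them, the GATA-type motif in 1.88% and the E-box in 3.28%. The tasp-1 window holds the word ACACTCCG and, facing it, its reverse complement CGGAGTGT. That word was found in 2.47% of optimal windows, and 32.7% of them hold some repeated word of 8 or more letters. The capitals in the set-16, stronger ash-2 and rbbp-5 windows are likewise a 7-letter word and its reverse complement, found in 1.11%, 2.77% and 2.43% of optimal windows. The window of the weaker ash-2 summit, which is not printed, also holds repeated words of 8 letters. These were TTTTCGAA and TTTCGAAA, found in 1.75% and 1.41% of optimal windows. Repeats of 7 or more letters were found in 63.3% of optimal windows. These words were read from the windows themselves and describe the letters only.

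Other genes were read from 3 further lists. These were further subunits, H3K4 demethylases, and other histone methyltransferase and SET-domain genes. The last list is not limited to H3K4 methylation. Of 8 further subunit genes, 2 had an optimal summit within 500 bp, beside the 8.18% of all protein-coding genes. These were dpy-30, the remaining core subunit and also a dosage compensation gene, with a signal of 57.8 at -377 (ranks 678 and 1933 in replicates 1 and 2), and wdr-5.3, a paralogue of wdr-5.1, with a signal of 46.7 at -176 (ranks 1886 and 1224). The wdr-5.3 summit was shared with mre-11, which encodes a nuclease of DNA break repair. Both signals were below the median of gene-start peaks. Relaxed summits were found at 6 of the 8, beside 27.4% of all protein-coding genes. Those with a relaxed summit alone were wdr-5.2 (signal 13.4 at 36), swd-2.2 and hcf-1 (1 shared peak of 11.8 at -37 and -99) and utx-1 (12.2 at -267), the H3K27 demethylase gene of the SET-16 complex. The genes swd-2.1 and pis-1 had no pooled summit within 500 bp. Apart from dpy-30 and wdr-5.3, these subunit genes thus had weak or no peaks.

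None of the 4 H3K4 demethylase genes had an optimal or a relaxed pooled summit within 500 bp, beside 8.18% and 27.4% of all protein-coding genes. With 4 genes, a count of 0 does not set them apart. These were spr-5 and lsd-1, related to mammalian LSD1, amx-1, and rbr-2, related to the KDM5 proteins. The closest optimal summit was that of rbr-2, at -677 with a signal of 54.6 (ranks 2642 and 911). For spr-5, amx-1 and lsd-1 the nearest optimal summits were at -3517, -2019 and -11302.

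Of 15 other histone methyltransferase and SET-domain genes, 5 had an optimal summit within 500 bp, beside 8.18% of all protein-coding genes. dot-1.1, of the H3K79 methyltransferase family, had a signal of 117 at -174, and set-4, of the H4K20 methyltransferases, 114.5 at -270. mes-2, the worm relative of Enhancer of zeste, had 100.9 at -123, met-1, an H3K36 methyltransferase gene, 81.9 at -41, and lin-59, related to fly Ash1, 58.3 at -443. Their ranks were 299 to 978 in replicate 2 and 413 to 1126 in replicate 1. All 5 summits were upstream and none was shared with another start, and none reached the signal of ash-2 (139.4), set-16 or tasp-1. A peak of 158 lay at -563 of set-26, a gene whose product binds methylated H3K4, just outside the distance, and it lay within 500 bp of the start of tsr-2. Relaxed summits alone were found at set-6 (28.7), met-2 (11.7) and set-25 (11.5), which made 8 of 15 with a relaxed summit, beside 27.4% of all. The genes set-1, set-9, set-17, set-26, set-30, set-32 and mes-4 had no pooled summit within 500 bp.

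**Figure D4:**
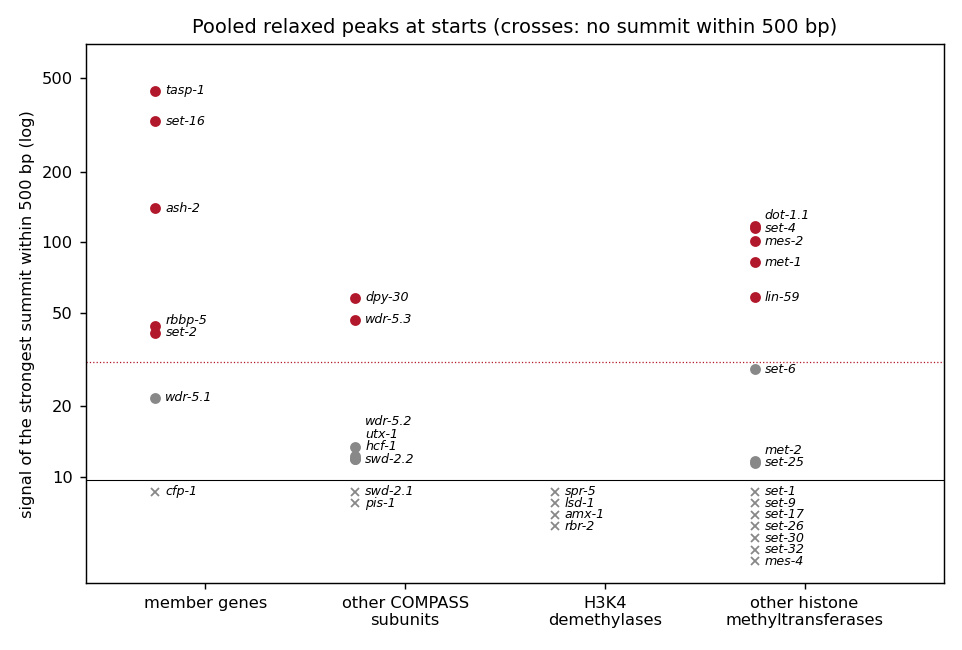
Signal of the strongest pooled relaxed summit within 500 bp of the start (log y axis) for each gene of the 4 lists (x axis). Red points are in the optimal list, grey points are not, the dotted line is the lowest optimal signal (30.9) and crosses under the solid line are genes with no summit at that distance, whose height carries no value; tasp-1, set-16 and ash-2 have the highest points, and all 4 demethylase genes are crosses.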

How the data were processed

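CEH-82 ChIP-seq was measured in 2 biological replicates of 1 group. Per the labels and the deposited file descriptions, the authors made a relaxed list of peaks and background for each replicate and for both together, from the alignments and 1 further file whose content is not described, and derived the optimal list from those 3 with the irreproducible discovery rate. The deposited signal value of each peak (scale not defined) and the deposited summit offset were used. Aligner, caller and threshold are not given in the sources used here, and sequencing depth is unknown. The ce10 copies of the lists were not used here.

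Peaks on ce11 were placed on the WBcel235 assembly (RefSeq sequence, Ensembl release 115 annotation) with Python 3.11.15; none ran past a chromosome end. Genes with a summit at most 500 bp from the annotated start were counted as bound. Replicate peaks were matched by an overlap of at least 1 bp, taking the nearest summit. The named items are all 7 members, genes that share their peaks, bound genes of the fixed lists, neighbouring genes, and the next stronger and weaker gene-start peaks. The other genes of the lists were named after their values were seen. Members and lists were chosen with earlier results of these data known. The search for summits and repeats was tested on simulated data. Figures were drawn with matplotlib 3.10.9.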

Additional observations from a re-analysis of the deposited data

How the results depend on the processing

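The count of 5 of the 7 genes was unchanged at 1000 bp, with any base of the peak counted, with the starts of all transcripts, and with the first coding start (an alternative added after seeing the data). In that order, the share of all genes was 10.3%, 8.87%, 8.65% and 8.17%, beside 8.18% in the main setting. It was 4 at 250 bp (without set-2; 5.33% of all genes) and with upstream summits only (without ash-2; 7.53%). Assigning every peak to the closest start alone gave 2 (set-2 and tasp-1, 6.19% of all genes), since the other peaks lie closer to the annotated start of a divergent gene. For ash-2 this was measured from its annotated, non-coding start. Its stronger summit, at -479 from Y17G7B.20, was at -103 to -142 from the ash-2 coding starts. Among peaks above the median of the list the count was 3 (tasp-1, set-16 and ash-2, 4.7%). With the 2346 strongest peaks of 1 replicate alone in place of the optimal list, the count was 5 for replicate 1 (8.06%) and 4 for replicate 2 (7.86%). For the 8 further subunit genes the count of 2 became 1 at 250 bp, with closest starts only and above that median. It became 6 in the relaxed list (27.4% of all genes) and was 2 with the strongest peaks of either replicate alone. The demethylase genes had 0 of 4, except for 1 at 1000 bp (rbr-2; 10.3% of all genes). The 15 other methyltransferase genes had 5, with 3 at 250 bp (met-1, mes-2 and dot-1.1) and 8 in the relaxed list (again beside 27.4%). Their count was 6, with set-26 added, at 1000 bp (10.3% of all genes) and with any base of the peak counted (8.87%). With the strongest peaks of 1 replicate alone it was 4 for replicate 1 and 5 for replicate 2. The genes lost at 250 bp had optimal summits at -260 (set-2), -377 (dpy-30), -270 (set-4) and -443 (lin-59). The relaxed list adds weaker peaks. All 24 recomputed replicate ranks were the same under stricter matching. All 6 pooled signals were the same in the relaxed list, which was fixed in advance, since the optimal list is the strongest part of that list. Ranked among gene-start peaks only, 4 of the 6 ranks moved by more than the standard deviation of the 2 replicate ranks. These were set-2 (1715 to 972), set-16 (26 to 12), tasp-1 (7 to 5) and the stronger ash-2 peak (230 to 160). That standard deviation comes from 2 ranks in the longer replicate lists and does not measure the spread of a pooled rank. Gene-start peaks are part of the optimal list, so a rank among them can only be equal or smaller, and the moves describe the shorter list. As the share of peaks at or above it, set-2 went from 73.1% to 78%, and the stronger ash-2 peak from 9.8% to 12.8%. For set-16 the share went from 1.11% to 0.963%, and for tasp-1 from 0.298% to 0.401%. With 100 bp either side, TAATTA was found in 1 of the 6 windows (4.43% of all optimal windows) and GAGAGA in 2 (45.4%). No paired analysis was possible because the 2 replicates form 1 group. The unknown depth limits what can be said of the weak sites at wdr-5.1 and cfp-1.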
